A study of Mus musculus with 38 samples.

Results

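The 10 genes for the dopamine and serotonin receptors Drd1, Drd2, Drd4, Drd5, Htr1a, Htr1b, Htr2a, Htr2c, Htr4 and Htr7 were examined among the 54165 genes of the count table, in which each was found by its symbol. RNA-seq libraries had been made from the prefrontal cortex (PFC, taken as micropunches) and the excised hypothalamus (Hypo) of adult FVB/NJ mice of both sexes. Ube3a2X mice were homozygous for a constitutive transgene that adds copies of Ube3a, a ubiquitin ligase gene, with a tag at the C terminus, and their WT littermates served as controls. The PFC gave 20 libraries (5 WT males, 5 WT females, 5 Ube3a2X males and 5 Ube3a2X females), and the Hypo gave 18 (4 WT males, 4 WT females, 5 Ube3a2X males and 5 Ube3a2X females). The libraries came from 25 mice, of which 13 gave both tissues. All 10 receptors passed a filter on low counts made over both tissues. The stricter filter used within each tissue removed Drd2, Drd4 and Htr4 in the PFC and Drd4 in the Hypo.

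Dopamine and serotonin reach the cortex and hypothalamus from small groups of neurons in the midbrain and brainstem, and some hypothalamic neurons make dopamine themselves. Their receptors, apart from the serotonin-gated channel of the Htr3 genes, are coupled to G proteins. Drd1, Drd5, Htr4 and Htr7 act through stimulatory G proteins and raise cyclic AMP, Drd2, Drd4, Htr1a and Htr1b act through inhibitory ones and lower it, and Htr2a and Htr2c act through Gq and phospholipase C. In the cortex Htr2a is best known from the deep-layer pyramidal neurons on which psychedelic drugs act, and in the hypothalamus Htr2c is known for its part in the control of appetite.

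The receptor genes other than Htr4 are placed here on GRCm38 by GENCODE vM21. Drd5 (chromosome 5, 38319367 to 38322518, plus strand) and Htr1a (chromosome 13, 105443639 to 105448122, plus strand) are genes of 1 exon. Drd1 lies on chromosome 13 (54051183 to 54055705, minus strand), and Drd2 (49340627 to 49408177, plus strand) and Htr1b (81628291 to 81633828, minus strand) both lie on chromosome 9. Drd4 is on chromosome 7 (141292006 to 141296464, plus strand), Htr2a on chromosome 14 (74640840 to 74709494, plus strand), Htr7 on chromosome 19 (35958734 to 36057507, minus strand) and Htr2c on chromosome X (146962513 to 147197277, plus strand). Exons of Drd5 share 1531 bases with the antisense gene Gm26560, and exons of Htr1b share 852 bases with D430036J16Rik. Whether the reads were counted by strand is not given in the sources used here, so the counts of Drd5 and Htr1b are uncertain to that extent.

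The start regions of 4 receptors whose libraries did not overlap between the tissues are shown, 2 of receptors that were higher in the Hypo (Drd2 and Htr7) and 2 of receptors that were higher in the PFC (Htr2a and Htr1a). Each is 300 bases long and runs 5′ to 3′ on the strand of the gene, from RefSeq on GRCm38.p6. Capitals mark GC boxes (GGGCGG or its complement CCGCCC) and the core of the cyclic AMP response element (TGACG or its complement CGTCA). Drd2 is shown at chr9:49340153-49340452 (plus strand), Htr7 at chr19:36057311-36057610 (minus strand), Htr2a at chr14:74640624-74640923 (plus strand) and Htr1a at chr13:105443443-105443742 (plus strand).
Drd2: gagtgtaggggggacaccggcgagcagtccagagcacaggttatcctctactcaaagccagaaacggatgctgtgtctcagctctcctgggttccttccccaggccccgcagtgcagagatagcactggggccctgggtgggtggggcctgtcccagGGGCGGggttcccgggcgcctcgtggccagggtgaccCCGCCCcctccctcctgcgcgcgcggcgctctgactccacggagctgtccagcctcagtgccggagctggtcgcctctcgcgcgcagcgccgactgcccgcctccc
Htr7: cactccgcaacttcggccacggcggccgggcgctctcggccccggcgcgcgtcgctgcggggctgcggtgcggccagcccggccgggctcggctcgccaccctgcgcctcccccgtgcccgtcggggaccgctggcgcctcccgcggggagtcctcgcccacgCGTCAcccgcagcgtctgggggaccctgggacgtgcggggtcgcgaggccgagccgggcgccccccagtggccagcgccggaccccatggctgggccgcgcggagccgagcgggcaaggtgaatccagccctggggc
Htr2a: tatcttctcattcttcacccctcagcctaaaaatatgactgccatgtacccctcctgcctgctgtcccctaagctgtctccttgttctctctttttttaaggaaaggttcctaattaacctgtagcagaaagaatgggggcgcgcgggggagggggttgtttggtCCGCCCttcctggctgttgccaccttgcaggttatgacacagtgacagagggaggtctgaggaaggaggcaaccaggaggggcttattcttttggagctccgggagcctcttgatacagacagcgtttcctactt
Htr1a: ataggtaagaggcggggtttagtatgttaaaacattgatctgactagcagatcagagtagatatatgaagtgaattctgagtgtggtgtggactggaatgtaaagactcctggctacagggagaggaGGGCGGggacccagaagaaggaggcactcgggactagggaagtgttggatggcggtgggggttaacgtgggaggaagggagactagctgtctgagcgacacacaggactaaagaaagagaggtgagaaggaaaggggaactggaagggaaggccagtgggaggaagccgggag

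The start regions differed in base composition. G and C made up 81.0% of the bases of Htr7, with 46 CpG dinucleotides, and 70.3% of those of Drd2, with 23. By contrast, they made up 52.0% of Htr2a, with 6 CpG, and 52.3% of Htr1a, with 7. The median over all 32851 promoters of the same length was 52.7% and 7 CpG. A GC box was found on either strand in the regions of 6 of the 9 receptors that had an entry, namely Drd1, Drd2, Drd4, Drd5, Htr1a and Htr2a, and in 35.7% of all promoters. Htr7 held a response element core, which 20.8% of all promoters also held, and none of the 9 held the letters TATAAA, found in 13.6% of all promoters. Of the receptors not shown, Drd5 had 70.3% and 38 CpG, the regions of the 2 starts of Drd1 65.7% and 59.3%, and Drd4 58.0%, all 3 being higher in the PFC, while Htr2c had 56.3% and 5 CpG and Htr1b 53.3% and 11 CpG, both being higher in the Hypo. The GC content of receptors higher in the PFC and of those higher in the Hypo thus overlapped.

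Library depth was 36.9 to 69.1 M counted reads in the PFC (median 57.6 M), against 39.0 to 380.8 M for the Hypo (median 68.9 M). Ube3a was at 698 to 2269 normalised CPM (reads of the gene per 1e+06 counted reads of the library, scaled by the TMM factor of the library) in Ube3a2X libraries and at 105 to 349 in WT libraries. The tissue labels were matched by 10 cortical identity genes, which summed to 2387 to 2983 CPM in the PFC against 34.7 to 56.3 in the Hypo, and by 12 hypothalamic identity genes, which summed to 1.13 to 3.94 in the PFC against 512 to 2185 in the Hypo. Of the hypothalamic genes, Sim1, Hcrt, Avp, Oxt, Six6 and Rax were each under 10 reads in every PFC library. Hypo WT female 471 stood apart from the other Hypo libraries. It scored 142.9 on the first principal component, against −55.0 to 7.20 in the others, and its summed pituitary markers reached 4676 CPM. Genotype estimates that moved by over 1.5 times without it are given both ways where they are described.

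The first comparison asked how the receptors differ between the PFC and the Hypo. All 10 differed, 5 higher in the PFC (Drd1, Drd4, Drd5, Htr1a and Htr2a) and 5 lower (Drd2, Htr1b, Htr2c, Htr4 and Htr7), by edgeR's quasi-likelihood test over 22282 genes at a Benjamini-Hochberg adjusted p under 0.05. Between these dissections most genes differed, since 63.4% of all genes tested passed the same threshold, with 31% higher in the PFC and 32.4% lower. The receptors of each mode of signalling were split between the tissues. Among the 4 stimulatory receptors, Drd1 and Drd5 were higher in the PFC and Htr4 and Htr7 lower, among the 4 inhibitory ones Drd4 and Htr1a were higher and Drd2 and Htr1b lower, and of the Gq-coupled pair Htr2a was higher and Htr2c lower. The median difference of the 10 was 0.13 on the log2 scale, against −0.02 over all genes tested. In such bulk tissue, fewer cells that express a receptor cannot be told apart from less of its RNA per cell, and the tissue cannot be told apart from the RNA kit and input, which differed between the tissues.

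**Figure D1:**
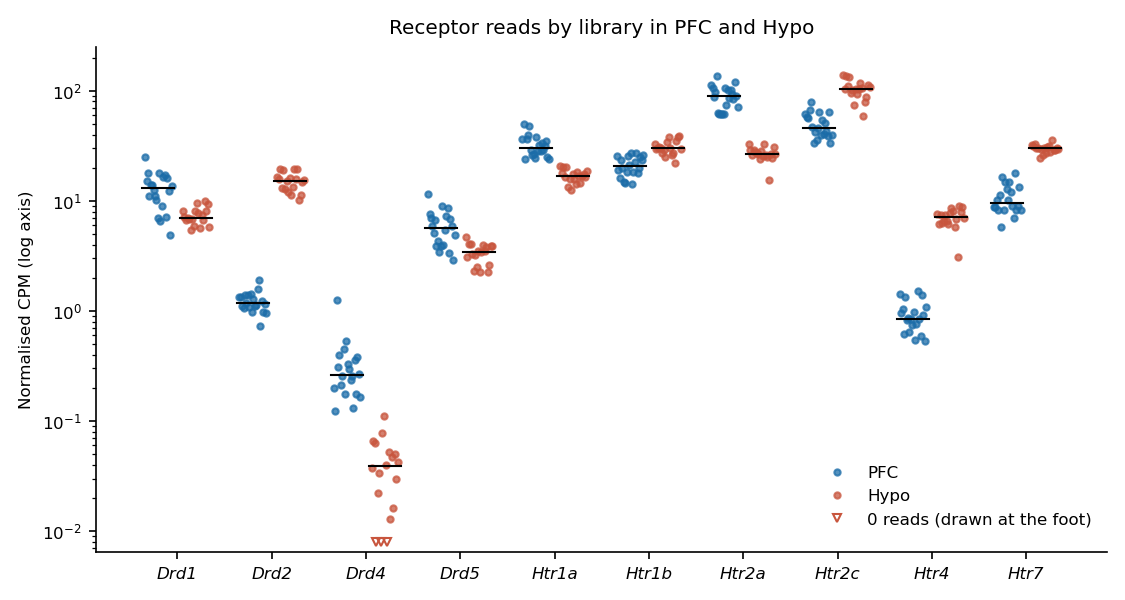
Normalised CPM of each receptor (log axis) in the 20 PFC and 18 Hypo libraries, with the median as a line and libraries without a read drawn at the foot. Htr2a lay at 61.0 to 137 CPM in the PFC and at 15.4 to 33.2 in the Hypo, and Drd2 at 0.733 to 1.93 and at 10.1 to 19.5.

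Of the stimulatory receptors, Drd1, a dopamine receptor of cortical and striatal projection neurons, lay at 4.90 to 25.0 CPM in the PFC (median 13.1) and at 5.40 to 10.01 in the Hypo (median 7.01). The PFC libraries spread over a wide range that took in the Hypo range. The difference was 1.13 ± 0.21 (log2, SE; 20 and 18 libraries, adjusted p = 1.36e-05 by edgeR's quasi-likelihood test), or 2.18-fold, and Drd1 was higher in the PFC of 12 of 13 mice. The striatum is rich in Drd1 and Drd2, and 14 striatal markers summed to 315 to 451 CPM in the PFC against 392 to 556 in the Hypo, where 8 of them were higher and 3 lower. None was under 10 reads in every library of a tissue, and their part in the differences of Drd1 and Drd2 was not tested.

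Drd5, the other receptor of the D1 class, lay at 2.88 to 11.5 CPM in the PFC (median 5.68) and at 2.27 to 4.71 in the Hypo (median 3.45). It was 0.82 ± 0.19 higher in the PFC (log2, SE; adjusted p = 3.30e-04 by edgeR's quasi-likelihood test), and higher in 12 of 13 mice. With the mouse as a block, in the 26 libraries of these 13 mice, the difference was 0.96 with an adjusted p of 0.0611, so the call was lost. Its antisense partner Gm26560 had 8 to 49 reads in the PFC against 0 to 30 in the Hypo, far fewer than the 152 to 579 and 114 to 1610 reads of Drd5.

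Htr7, which is known from work on circadian timing in the hypothalamus, lay at 5.84 to 17.8 CPM in the PFC (median 9.55) and at 24.5 to 35.9 in the Hypo (median 30.1). No PFC library reached the Hypo range. The PFC level was 0.301 times that of the Hypo (−1.73 ± 0.16, log2, SE; adjusted p = 1.19e-11 by edgeR's quasi-likelihood test). The Hypo libraries were also closer to each other than the PFC libraries were.

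Htr4, which is best known from the gut and the limbic forebrain, lay at 0.538 to 1.52 CPM in the PFC (median 0.854, 24 to 88 reads) and at 3.07 to 9.06 in the Hypo (median 7.20, 131 to 2931 reads). The lowest Hypo library, WT female 471, was still above every PFC library. The difference was −2.65 ± 0.17 (log2, SE; adjusted p = 5.98e-16 by edgeR's quasi-likelihood test), and −2.72 without that library.

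Of the inhibitory receptors, Drd2 showed the greatest difference of the 10. This receptor restrains dopamine release as an autoreceptor and, in the pituitary, restrains prolactin. It lay at 0.733 to 1.93 CPM in the PFC (median 1.17, 35 to 89 reads) and at 10.1 to 19.5 in the Hypo (median 15.2, 561 to 7681 reads), without overlap. The PFC level was 0.0824 times that of the Hypo (−3.60 ± 0.12, log2, SE; adjusted p = 5.69e-24 by edgeR's quasi-likelihood test). Pituitary markers, of which there were 10, summed to 0.0980 to 2.36 CPM in the PFC, where 7 were under 10 reads in every library (among them Cga, Lhb, Fshb, Pou1f1, Pitx1 and Tbx19), against 20.3 to 4676 in the Hypo. Their part in the Drd2 difference was not tested. The Hypo library with the highest sum, WT female 471, also had the highest Drd2, at 19.5 CPM, with WT female 398 next at 19.4, and without it the difference was −3.65.

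Drd4, the other receptor of the D2 class, was barely detected. It had 6 to 66 reads in the PFC (0.124 to 1.25 CPM, median 0.262) and 0 to 25 reads in the Hypo (0 to 0.111 CPM, median 0.0387). The tissues did not overlap in CPM, and the difference was 2.64 ± 0.51 (log2, SE; adjusted p = 3.42e-05 by edgeR's quasi-likelihood test). With the mouse as a block it was 3.19 with an adjusted p of 0.116, and the call was lost. The ratio within a mouse could be taken in the 10 mice with reads in both tissues, where its log2 ran from 0.66 to 4.45.

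Htr1a, which in the forebrain is a postsynaptic receptor that dampens pyramidal firing, lay at 23.9 to 50.1 CPM in the PFC (median 30.5) and at 12.5 to 20.9 in the Hypo (median 16.9). Every PFC library was above every Hypo library. The difference was 0.96 ± 0.13 (log2, SE; adjusted p = 3.96e-08 by edgeR's quasi-likelihood test), or 1.94-fold, and Htr1a was higher in the PFC of 13 of 13 mice.

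Htr1b, which sits on axon terminals and restrains transmitter release, lay at 14.2 to 27.1 CPM in the PFC (median 20.7) and at 22.1 to 38.6 in the Hypo (median 30.1). The tissues overlapped, but in all 13 mice the PFC was the lower. The difference of −0.55 ± 0.13 was the least of the 10 (log2, SE; adjusted p = 4.64e-04 by edgeR's quasi-likelihood test). D430036J16Rik, on its other strand, had 120 to 279 reads in the PFC against 53 to 1071 in the Hypo.

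The Gq-coupled pair moved in opposite directions. Htr2a lay at 61.0 to 137 CPM in the PFC (median 89.0) and at 15.4 to 33.2 in the Hypo (median 26.6), a gap with no library in it. The PFC level was 3.31 times that of the Hypo (1.73 ± 0.11, log2, SE; adjusted p = 1.35e-15 by edgeR's quasi-likelihood test), and the log2 ratio within a mouse ran from 1.11 to 2.30 with a median of 1.75. The lowest Hypo library was WT female 471, and without it the difference was 1.67.

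Htr2c lay at 33.4 to 79.1 CPM in the PFC (median 46.1) and at 58.7 to 140 in the Hypo (median 104). The ranges overlapped at their ends, and the PFC was the lower in all 13 mice. The difference was −1.12 ± 0.13 (log2, SE; adjusted p = 3.18e-09 by edgeR's quasi-likelihood test). The epithelium of the choroid plexus is rich in Htr2c, and 12 choroid plexus markers summed to 3.59 to 9.48 CPM in the PFC against 69.0 to 169 in the Hypo. Of 11 tested, 9 were lower in the PFC and 1 higher, and Kcne2, Otx2 and Slc4a5 were under 10 reads in every PFC library. The lowest sum in the Hypo, 69.0, was that of WT female 471, which also had the lowest Htr2c, 58.7 CPM. The part of the choroid plexus in the Htr2c difference was not tested, and without that library the difference was −1.19.

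**Figure D2:**
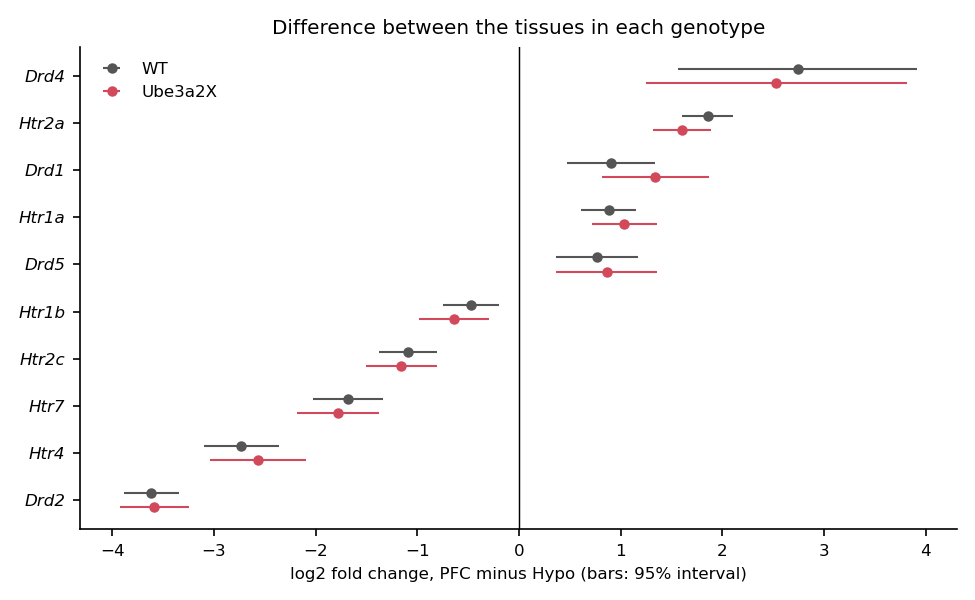
Log2 fold change of each receptor between the tissues (horizontal axis, PFC minus Hypo) within WT and within Ube3a2X mice, with points for the estimates and bars for the 95% intervals. The estimates of the genotypes lie side by side, from −3.62 and −3.59 for Drd2 to 2.74 and 2.53 for Drd4, and no bar reaches 0.

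In all, the libraries of the tissues did not overlap for 6 of the 10 receptors (Drd2, Drd4, Htr1a, Htr2a, Htr4 and Htr7), against 20.4% of all genes tested. Compared per kb of exon, which takes out the length of the gene, Htr2a stood first in the PFC (median 15.9 CPM per kb), followed by Htr1a (6.79), Htr2c (4.94), Htr1b (4.39), Drd1 (3.61), Htr7 (2.81), Drd5 (1.80), Drd2 (0.459), Htr4 (0.174) and Drd4 (0.0774). The lowest Htr2a library, at 10.9 per kb, overlapped the highest Htr1a library, at 11.2, and each further receptor down to Drd5 overlapped its neighbour. Drd5 and Drd2 did not overlap, at 0.914 and 0.757 per kb for the lowest and the highest library. In the Hypo the order began with Htr2c (median 11.2), Htr7 (8.85), Htr1b (6.37), Drd2 (5.99) and Htr2a (4.74), and went on to Htr1a (3.76), Drd1 (1.93), Htr4 (1.47), Drd5 (1.09) and Drd4 (0.0114). Here Htr1a and Drd1 stood apart, at 2.78 for the lowest and 2.76 for the highest library, and so did Drd5 and Drd4, while the other neighbours overlapped. Htr2a thus passed from first place in the PFC to the fifth in the Hypo, and Drd2 from the eighth to the fourth.

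The difference between the tissues was then taken within each genotype. All 10 receptors passed the threshold in WT and in Ube3a2X mice, in the same direction, where 60.7% and 55.5% of all genes tested did so. In WT mice the difference was 0.91 for Drd1, 0.77 for Drd5, −1.68 for Htr7 and −2.73 for Htr4. In Ube3a2X mice the same receptors gave 1.34, 0.86, −1.78 and −2.57. Htr1a gave 0.88 in WT and 1.03 in Ube3a2X mice, Htr1b −0.47 and −0.64, Htr2a 1.86 and 1.60, and Htr2c −1.09 and −1.16 (all log2). With the mouse as a block, 3 receptors lost the call in WT, where 4 mice had both tissues, namely Drd1 (0.57, adjusted p = 0.255), Drd4 (4.36, 0.0961) and Drd5 (0.91, 0.104), by edgeR's quasi-likelihood test. In Ube3a2X mice, of which 9 had both tissues, Drd4 (2.02, adjusted p = 0.358) and Drd5 (1.02, 0.0887) lost it. With the expected-strand share, a measure of library quality, as a covariate, Htr1b lost it in WT (−0.43, adjusted p = 0.0695).

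The difference of these differences was tested as the interaction of tissue and genotype. No receptor passed, and 0% of all genes tested did by edgeR's quasi-likelihood test, although 2474 genes had an unadjusted p under 0.05 and DESeq2 called 34 genes, none of them a receptor. With 1 library left out the count ran from 0 to 250, the latter without PFC Ube3a2X male 258. The highest interaction was that of Drd1 (0.43, 95% interval −0.10 to 0.96, adjusted p = 0.564) and the lowest that of Htr2a (−0.26, 95% interval −0.55 to 0.03, adjusted p = 0.530). Without Hypo WT female 471 that of Htr2a was −0.16 and that of Drd4 −0.36, in place of −0.21. For Drd4 the interval ran from −1.499 to 1.083. With the mouse as a block, the WT female part of the interaction rested on 1 mouse. The interaction was then 0.82 for Drd1, −0.05 for Htr2a and −2.34 for Drd4, and none was called. That of Drd1 was 0.25 without the RIN term.

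The second comparison asked whether added Ube3a went with other receptor levels within each tissue, averaged over the sexes. In the PFC none of the 7 receptors tested was called, against 0.0183% of all genes tested, by edgeR's quasi-likelihood test. Htr2a alone had an unadjusted p under 0.05 (−0.24 ± 0.09, log2, SE; adjusted p = 0.473). Drd1 gave 0.24 (95% interval −0.03 to 0.50, adjusted p = 0.693), and Htr1b gave −0.24 (−0.52 to 0.03, adjusted p = 0.695). The estimate for Drd1 was 0.46 with a looser filter on low counts and none on variance, 0.36 without Ube3a2X male 402 and 0.13 with quality components, the leading principal components of the Picard measures, in place of the surrogate variables, which are covariates estimated from the counts. The others were nearer to 0, at 0.15 for Htr1a, 0.07 for Htr2c, 0.05 for Drd5 and −0.16 for Htr7. With 1 library left out Htr1a came down to 0.05 (without Ube3a2X female 417) and 0.06 (without Ube3a2X male 238), Htr2c ran from 0.02 (without WT female 397) to 0.16 (without WT female 93), and Htr7 from −0.27 (without Ube3a2X male 253) to −0.05 (without WT male 245). With the looser filter and none on variance Drd5 was 0.26 and Htr7 −0.29, and Drd5 was 0.17 in the 14 libraries under 96% expected strand (a quality measure described with Htr2a). Drd2, Drd4 and Htr4, which the looser filter kept, gave 0.10, 0.29 and 0.23, and none was called.

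In the Hypo none of the 9 receptors tested was called either, against 0.00843% of all genes tested. The estimates ran from −0.15 for Htr4 (95% interval −0.31 to 0.02) to 0.14 for Drd2 (−0.07 to 0.35). Drd2 was 0.24 without WT male 403, 0.22 without WT female 398, 0.08 without WT male 245 and 0.07 with RIN only. The intervals here were narrow for Htr7, at −0.07 to 0.09, and for Htr2a, at −0.13 to 0.12, and without WT female 471 the estimates were 0.02 and 0.03.

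**Figure D3:**
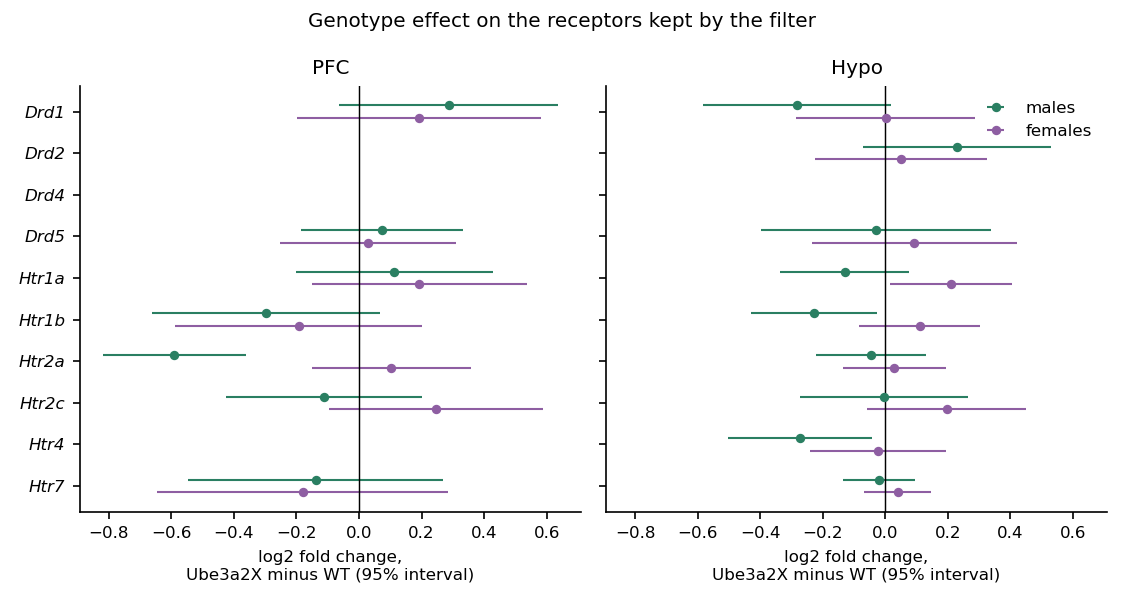
Log2 fold change between the genotypes (horizontal axis, Ube3a2X minus WT) in males and in females for the receptors kept by the filter, in the PFC (left) and the Hypo (right), with 95% intervals. Htr2a in PFC males, at −0.59, lies farther from 0 than any other point.

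Within the sexes, Htr2a in PFC males stood out from the other receptors. The 5 Ube3a2X males were at 63.2 (mouse 238), 61.7 (253), 61.2 (258), 61.5 (267) and 61.0 CPM (402). The 5 WT males were at 93.8 (mouse 245), 84.2 (251), 120 (256), 90.0 (266) and 71.0 CPM (403). Each Ube3a2X male was below each WT male. The Ube3a2X males differed by less among themselves than the WT males did, with a CV (SD over mean) of 1.37% against 19.4%. Counting error at their 2729 to 3602 reads is itself above 1.37%, so a spread this small can be chance in part. Htr2a was the only one of the 7 receptors without overlap in PFC males, against 2.94% of all genes tested. The difference was −0.59 ± 0.12 (log2, SE, n = 5 and 5; 95% interval −0.82 to −0.36) and missed the threshold with an adjusted p of 0.0658 by edgeR's quasi-likelihood test, which called 0.0275% of all genes in this comparison. DESeq2 on the same model gave −0.60 with an adjusted p of 0.00129, while edgeR's quasi-likelihood test gave −0.60 and 0.346 with RIN only, and −0.50 ± 0.19 and 0.996 with quality components.

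In PFC females the difference was 0.10 (95% interval −0.15 to 0.36, adjusted p = 0.714 by edgeR's quasi-likelihood test), where 0.00917% of all genes were called and 2.61% did not overlap. Ube3a2X females lay at 87.9 to 137 CPM (median 106) and WT females at 74.3 to 106 (median 101). The interaction of sex and genotype, the difference in males minus that in females, was −0.69 ± 0.17 (log2, SE; adjusted p = 0.0958 by edgeR's quasi-likelihood test), and 0% of all genes passed, although 2746 had an unadjusted p under 0.05. DESeq2 gave −0.71 with an adjusted p of 0.0165, and it called 804 genes. Htr2c, the other Gq-coupled receptor, gave −0.36 for the interaction (adjusted p = 0.338), which was −0.56 without WT female 93, −0.20 without WT male 256 and −0.15 without WT female 397.

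Measures of RNA quality and markers of other cell types were set beside Htr2a in the PFC. Bases in introns made up 3.1 to 4.0% of sequenced bases in Ube3a2X males and 4.40 to 5.85% in WT males, without overlap, as for Htr2a. In females they made up 3.06 to 4.29% and 3.27 to 4.92%. All 10 oligodendrocyte markers had estimates above 0 in PFC males (0.21 to 0.57, median 0.31), as had all 8 astrocyte markers (0.12 to 0.30, median 0.15) and all 7 endothelium and blood markers tested (0.04 to 0.51, median 0.26), against a median of 0.01 over all genes, and none of them was called by edgeR's quasi-likelihood test. The endothelium and blood markers summed to 257 to 322 CPM in Ube3a2X males and to 184 to 259 in WT males, the astrocyte markers to 1294 to 2357 and 991 to 1551, and the oligodendrocyte markers to 1028 to 3615 and 1034 to 2311. The cortical identity genes summed to 2456 to 2983 CPM in Ube3a2X males and to 2387 to 2698 in WT males. The striatal markers summed to 377 to 412 and 359 to 378, and thalamic markers to 96.6 to 126 and 89.3 to 103. The part of introns and of these cell types and regions in the Htr2a difference was not tested.

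The expected-strand share (reads with the strand that the kit should give) was 98.2 to 99.1% in Ube3a2X males 238, 253, 267 and 402 and 97.4 to 98.4% in Ube3a2X females 462 and 468, against 91.5 to 95.6% in the other 14 PFC libraries. Ube3a2X male 258, at 92.1%, had Htr2a at 61.2 CPM, like the other Ube3a2X males, while Ube3a2X females 462 and 468 had 98.5 and 137 CPM. In the 14 libraries under 96%, the difference in males was −0.52, with an adjusted p of 0.143 by edgeR's quasi-likelihood test, where the lone Ube3a2X male was assumed to vary like the other groups. With the share as a covariate it was −0.61 with an adjusted p of 0.773. Leaving out 1 library at a time, the difference in males stayed between −0.68 and −0.52, and its adjusted p ran from 0.0132 without WT male 403 to 0.536 without Ube3a2X male 238. It passed the threshold without WT male 403, without WT female 259 (0.0400) or without Ube3a2X female 462 (0.0486).

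**Figure D4:**
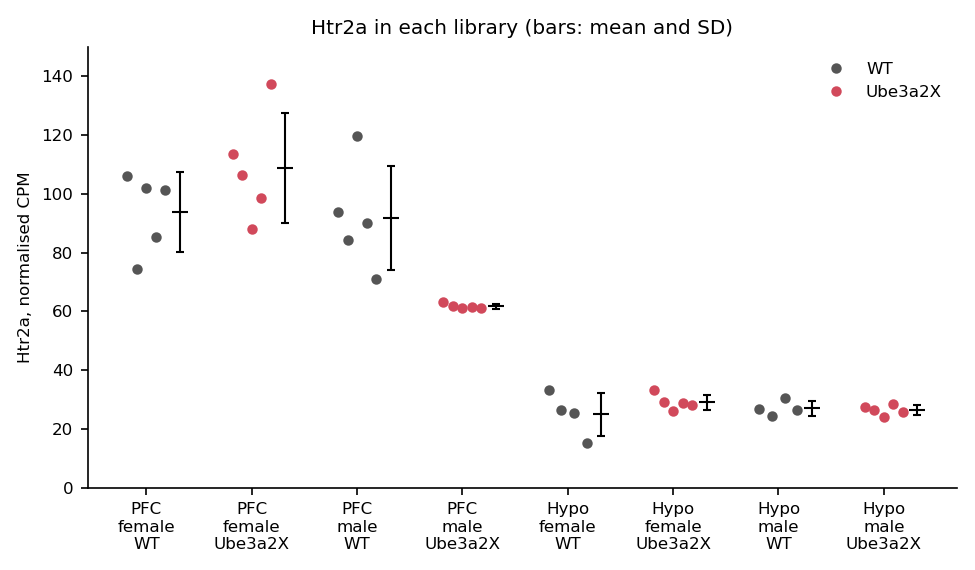
Htr2a in normalised CPM (vertical axis) in each library of the 8 groups of tissue, sex and genotype, with points for libraries and bars for the mean and SD. The 5 Ube3a2X males of the PFC lie at 61.0 to 63.2 CPM, below all WT males (71.0 to 120), while the Hypo groups overlap.

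In the Hypo, the 95% interval for Htr2a over the sexes was −0.13 to 0.12 in the model with surrogate variables (adjusted p = 0.988 by edgeR's quasi-likelihood test), and the estimate was 0.106 with RIN only and 0.124 with the expected-strand share as a covariate. In males Ube3a2X libraries lay at 24.2 to 28.6 CPM and WT libraries at 24.4 to 30.6, and no gene was called in that comparison (0%, with 1092 genes at an unadjusted p under 0.05 and 17 called by DESeq2). Whether the effect in PFC males differed from that in Hypo males was not tested.

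Other receptors reached an unadjusted p under 0.05 in the Hypo and did not pass the correction. In males Htr4 gave −0.27 (95% interval −0.50 to −0.04, adjusted p = 0.524 by edgeR's quasi-likelihood test), with Ube3a2X libraries at 6.11 to 8.68 CPM and WT libraries at 7.01 to 9.06. Htr1b gave −0.23 there (−0.43 to −0.03, adjusted p = 0.527), with Ube3a2X libraries at 25.1 to 38.1 CPM and WT libraries at 29.8 to 38.6. Without Hypo WT female 471, which is in neither group but enters the same fit, these were −0.11 for Htr4 and −0.08 for Htr1b, and Htr1b was −0.14 without WT male 251 or without Ube3a2X male 238. With the expected-strand share as a covariate Htr4 was 0.05. Both pairs of groups overlapped, as did every receptor in Hypo males, where 1.39% of all genes did not.

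In Hypo females Htr1a gave 0.21 (95% interval 0.02 to 0.41, adjusted p = 0.999 by edgeR's quasi-likelihood test), with Ube3a2X libraries at 16.4 to 20.9 CPM and WT libraries at 14.2 to 18.5. Without WT female 262 it was 0.13. No receptor was called or without overlap in Hypo females, against 0.00843% and 1.03% of all genes. The interaction of sex and genotype in the Hypo was −0.34 for Htr1a and −0.34 for Htr1b (adjusted p = 0.703 for each by edgeR's quasi-likelihood test), and 0% of all genes passed, with 819 at an unadjusted p under 0.05. Without Hypo WT female 471 they were −0.19 and −0.11. With that library kept, Htr1a was −0.22 with the looser filter and none on variance, and also with no filter on low counts.

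Receptor levels also varied between mice of the same group. After the mean of each sex and genotype was taken off, Drd1 and Drd5, the D1-class pair, varied together over the 20 PFC libraries (Pearson's r = 0.888, Spearman's rho = 0.890, r = 0.835 without the 2 farthest libraries). Both went against Htr7 there, with r = −0.607 for Drd1 and −0.760 for Drd5. Htr2a and Htr2c varied together in the PFC (r = 0.734, and 0.556 without the 2 farthest) and in the Hypo (r = 0.737, and 0.552). In the Hypo, Htr2a and Htr4 had r = 0.848, which came down to 0.390 without the 2 farthest libraries (WT females 471 and 262), so that it rests on these. Htr1b and Htr4 had r = 0.742 there (0.749 without the 2 farthest), and Drd1 and Htr1b r = 0.784 (0.653). All 21 pairs in the PFC and 36 in the Hypo were looked at. All receptors of a library share its depth, RNA quality and dissection, so these values describe the libraries and carry no test.

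**Figure D5:**
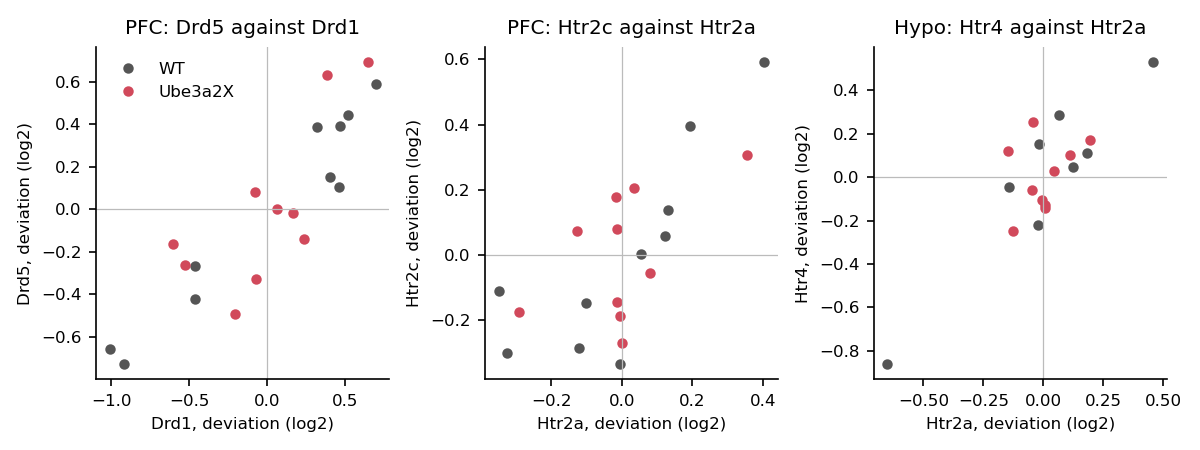
Deviation of log2 CPM from the mean of the group of sex and genotype, for Drd5 against Drd1 in the PFC, Htr2c against Htr2a in the PFC and Htr4 against Htr2a in the Hypo, with a point for each library. The first cloud runs along a line (r = 0.888), and the third is drawn out by single libraries (r = 0.848, and 0.390 without the 2 farthest).

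Among the 13737 genes with a mean of at least 100 reads in the PFC, Spon1 was most like Drd1 over the 20 libraries (r = 0.970 after the group means were taken off), followed by H60b and Chrna5. Nipal3 was most like Drd5 (r = 0.937), Lamp5 most like Htr7 (r = 0.910), and Dgcr8 most like Htr2a (r = 0.889). For Htr1a, Htr1b and Htr2c the nearest genes were Spock3 (r = 0.856), Wdr78 (r = 0.818) and Col25a1 (r = 0.854). In the 18 Hypo libraries the nearest genes were Esrrg for Htr2c (r = 0.975), Zfp398 for Htr4 (r = 0.968), Pcdh20 for Htr2a (r = 0.965) and Paqr9 for Htr1b (r = 0.955). Those for Drd1, Drd2, Drd5, Htr1a and Htr7 were Cdkn2aip (r = 0.931), Mab21l1 (r = 0.912), Apln (r = 0.878), Foxo3 (r = 0.842) and Hacd3 (r = 0.929). Each nearest gene had the highest of 13737 correlations over 20 PFC libraries, or of 15248 over 18 Hypo libraries. A high r can be reached by that choice alone, so these values describe the libraries and carry no test. No receptor had the same nearest gene in both tissues, which says little for the same reason. Without the 2 farthest libraries the values for Htr2a and Htr4 in the Hypo came down to 0.875 and 0.884. Those for Htr2c and Htr1a in the PFC came down to 0.761 and 0.773, and that for Htr1a in the Hypo to 0.756. The others came down by less.

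The remaining receptors of the families were also compared between the tissues. Of 9, Htr2b did not reach the filter, with 0 to 7 reads in the PFC against 0 to 10 in the Hypo. Of the other 8, 5 were higher in the PFC and 3 lower by edgeR's quasi-likelihood test, where 31% of all genes were higher and 32.4% lower, and their median was 1.11. Htr3a, a subunit of the serotonin-gated channel, was 2.60 ± 0.18 higher, Htr1f 2.49 ± 0.24, Htr6 2.01 ± 0.16, Htr5a 0.92 ± 0.09 and Htr5b 1.30 ± 0.30 (log2, SE). Htr1d was lower by −3.37 ± 0.20. The other channel subunit, Htr3b, had 0 to 4 reads in the PFC against 17 to 180 in the Hypo, and Drd3 had no read in 18 of 20 PFC libraries and 9 to 761 reads in the Hypo.

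Genes that make, package, take up and break down dopamine and serotonin were mostly lower in the PFC, 11 of 15, with 2 higher, among them Tph1 (2.19 ± 0.47, log2, SE), where 32.4% of all genes were lower and 31% higher. The median over the list was −1.69, against −0.02 for all genes tested. Th, the rate-limiting enzyme of dopamine synthesis, was at −4.20 ± 0.29, Ddc, which makes both amines, at −4.28 ± 0.08, and the vesicular transporter Slc18a2 at −6.91 ± 0.20 (log2, SE, adjusted p = 4.18e-15, 1.60e-31 and 2.25e-26 by edgeR's quasi-likelihood test). The cation transporter Slc29a4 was at −2.38 ± 0.15. Tph2, which makes serotonin in neurons, gave 0.13 ± 0.28 and Pts gave −0.12 ± 0.09, and neither passed the test (adjusted p = 0.690 and 0.270 by edgeR's quasi-likelihood test).

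Genes for the G proteins, cyclases and channels behind the receptors were mostly higher in the PFC, 15 of 21, with 4 lower, against 31% and 32.4% of all genes. Their median was 0.53, against −0.02 for all genes. The cyclase Adcy1 was 4.14 ± 0.13 higher, the phospholipase Plcb1, which Gq activates, 2.44 ± 0.11, and the channel subunits Kcnj3 and Kcnj9, which inhibitory receptors open, 1.75 ± 0.09 and 1.36 ± 0.07. Lower were Gnai2 (−0.84 ± 0.09), Plcb4 (−0.70 ± 0.12), Adcy5 (−0.38 ± 0.09) and Gnas (−0.45 ± 0.11). Of 16 genes for desensitisation and for proteins that bind or edit the receptors, 9 were higher and 7 lower, with a median of 0.38, while 63.4% of all genes were called. They included the G protein regulators Rgs4 (1.83 ± 0.11) and Rgs7 (1.15 ± 0.08) and the receptor kinases Grk5 (1.503 ± 0.111) and Grk2 (0.72 ± 0.08) on one side, and Rgs9 (−2.83 ± 0.13), the RNA editing enzyme Adar (−0.53 ± 0.08), Arrb2 (−0.52 ± 0.11) and Cc2d1a (−0.43 ± 0.10) on the other (all log2, SE, by edgeR's quasi-likelihood test). The same lists were compared between the genotypes within a tissue, where the filter left 3 of the 9 other receptors in the PFC and 2 in the Hypo, 7 and 9 of the 15 genes of synthesis and breakdown, 19 and 19 of the 21 behind the receptors, and 14 and 14 of the 16 for desensitisation. None of those tested was called by edgeR's quasi-likelihood test, against at most 0.0275% of all genes. DESeq2 called the G protein genes Gna11 and Gnai2 and the receptor kinases Grk2 and Grk3 in PFC males, against 2.25% of all genes, and Gna11, Gnai1, Gnai2, Plcb1, Grk2 and Rgs4 for the interaction of sex and genotype in the PFC, against 7.38%. These genes are named after their values were seen.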

How the data were processed

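RNA of the PFC and Hypo was sequenced from stranded mRNA libraries. The authors used STAR for alignment to GRCm38 and featureCounts with Gencode v24, and the deposited values are counts per gene, not normalized. Strand settings and tool versions are not given in the sources used here. The authors deposited the RNA integrity number (RIN), a score read on a Bioanalyzer, and from Picard a score for AT dropout, regions and strand as a fraction of bases or reads, and coverage bias as a ratio. The labels give 1 more WT mouse per sex in the PFC than the study's methods do, and all labelled libraries were used. The row of PFC WT male 266 carries mouse number 66 and was joined by sample name.

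The members and lists were chosen with earlier results of these data known. Normalised CPM are counts divided by library size and TMM factor. The tissues were compared in edgeR 4.0.16 (glmQLFit, robust, glmQLFTest) with 8 groups and RIN on 22282 genes kept by filterByExpr. Genotypes were compared within a tissue after genes under 100 reads in 2 or more libraries and the 15% with the lowest variance were removed (10900 genes in the PFC, 11869 in the Hypo), with RIN and 2 surrogate variables from sva 3.50.0. p-values were adjusted by Benjamini and Hochberg, genes were called at an adjusted p under 0.05, and 95% intervals are the estimate ± 1.96 SE. The SE is the log2 fold change divided by the square root of F. Alternatives used limma 3.58.1 (voom), DESeq2 1.42.0, RLE factors, other filters, other covariates, the mouse as a block, and each library left out. The steps were tested on simulated data. R 4.3.3 was used.

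Numbers in the labels name mice, so they pair the tissues of 13 mice. These were 1 WT female, 3 WT males, 5 Ube3a2X females and 4 Ube3a2X males, groups of equal weight in the fit with the mouse as a block. Deviations from the group means over genes correlated at −0.309 to 0.211 between the tissues of a mouse. Between libraries of a group, squared differences of counts were 12.3 to 569 times the sampling noise over 72 pairs, so libraries of a group differed by more than counting error. Each mouse gave 1 library per tissue, so mouse, dissection and library preparation cannot be told apart.

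Named are the 10 receptors, up to 4 genes per direction of each pathway list with the smallest p between the tissues, those below the filter, and the nearest genes by correlation. Htr5b, Pts and Tph2 were named after their values were seen. Some genes under this rule are counted in their lists but not reported here by name. Of the genes of the table, 53905 were found in GENCODE vM21, used for places and exon length, and 260 were not. Start regions run from 250 bases before to 50 after the RefSeq start. Adrbk1 and Adrbk2 were not found under those names, and Grk2 and Grk3 were.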

Additional observations from a re-analysis of the deposited data

Results flagged for a closer look

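In 5 of 80 receptor groups, each a receptor in 1 tissue, sex and genotype, 1 library stood farther from the rest than Dixon's critical value at 95% allows, and chance alone gives about 1 in 20 such groups. Drd4 in PFC Ube3a2X female 420 was at 1.25 CPM (66 reads), against 0.124 to 0.400 CPM in the other 4 libraries. PFC Ube3a2X male 238 was above the others of its group in Htr1a, at 48.2 CPM against 24.6 to 29.2, and in Drd5, at 6.71 against 3.44 to 4.33. Hypo Ube3a2X female 272 was above the others of its group in Drd1, at 8.11 CPM against 6.73 to 7.09, and in Htr1b, at 32.8 against 29.9 to 30.6. The low values of Hypo WT female 471 in Htr2a, Htr2c and Htr4 did not pass the same limit.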

How the results depend on the processing

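Of 30 differences of receptors between the tissues, over all mice and within each genotype, 0 changed sign in any setting run and 8 missed the threshold in at least 1. These were Drd4 and Drd5 in all 3 comparisons and Drd1 in WT when the mouse was taken as a block (7 estimates), and Htr1b in WT with the expected-strand share as a covariate (−0.43, adjusted p = 0.0695 by edgeR's quasi-likelihood test). With the block, the calls over all genes went from 14116 to 6973 in the 26 libraries of 13 mice and 8 receptors were called, while with the mouse as a random effect all 10 receptors were called. Of 74 estimates for genotype, which include its interactions with tissue and with sex, none was called and 42 changed sign in another setting. The cause was not tested. The count of called receptors in PFC males and for the interaction of sex and genotype in the PFC was 0, and 1 (Htr2a) by DESeq2, and from 0 to 1 with 1 library left out. The interaction of Htr2a passed without Ube3a2X male 253 (adjusted p = 0.0337 by edgeR's quasi-likelihood test), Ube3a2X female 462 (0.0361) or WT female 93 (0.0206), and over all libraries left out its adjusted p reached 0.771 (−0.54, without WT female 397). It was 0.863 with quality components. Over all genes the interaction of sex and genotype in the PFC was called for 0 genes, for 804 by DESeq2 and for up to 1624 with 1 library left out (WT female 93). In PFC males 3 genes were called, and 245 by DESeq2, 1384 in the 14 libraries under 96% expected strand, a subset chosen after seeing the data, as was the strand covariate. Of the estimates printed in the report, Htr2a in PFC females ran from −0.0075 to 0.21 with 1 library left out. In the same way Drd5 in the PFC ran from −0.0157 to 0.129, Htr7 in the Hypo from −0.0175 to 0.0366 and the interaction of tissue and genotype for Drd4 from −0.53 to 0.0173. With quality components Drd5 in the PFC was −0.0554, Htr7 in the PFC 0.0360 and Htr7 in the Hypo −0.0046, which was −0.0514 with RIN only and −0.0476 with the strand covariate. Htr2a in the Hypo ran from −0.0311 to 0.0436 in the same way, and was 0.0146 with no filter, 0.106 with RIN only, 0.0360 with quality components and 0.124 with the strand covariate. Htr4 in the Hypo was 0.000848 with RIN only and 0.0252 with the strand covariate, which gave 0.0488 in Hypo males. Reads were few for Drd4 in both tissues and for Htr4 and Drd2 in the PFC.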
